A study of Mus musculus with 6 samples.

Results

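The Iroquois genes Irx1 to Irx6 encode homeodomain transcription factors, and the accessible regions assigned to them were the peaks whose nearest protein-coding gene was 1 of these 6. They numbered 317 of the 205844 peaks of the FM list and 129 of the 139164 peaks of the KO list, and merged into 337 of 239675 regions. Chromatin accessibility had been measured by ATAC-seq, in which a transposase cuts open chromatin, in mouse epiblast stem cells kept as embryoid bodies and differentiated with serum for 2 days. One group of 3 libraries came from Mixl1-inducible lines that received doxycycline (1 µg/mL) during the final 24 h, and the other group of 3 libraries from Mixl1 knockout (KO) cells. Mixl1 is a homeobox factor of the primitive streak. Both groups had been grown on irradiated fibroblasts with bFGF and Activin A. Each group is represented by 1 peak list. No label explains the name FM of the list that is not the knockout's. Being the remaining one, it was taken for the induced group, and it is called the FM list here. The labels record doxycycline for the inducible lines only, so Mixl1, doxycycline and the choice of cell line cannot be told apart as sources of a difference. They do not say which part of Mixl1 the knockout alters or how many clones were used. With 1 list a group no spread between replicates can be given, and the groups were compared without a test. Depth in reads is unknown.

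Iroquois proteins belong to the TALE class of homeodomain factors and bind short DNA sites, acting in the patterning of the neural plate, heart, limb and kidney. In mammals the 6 genes lie in 2 clusters of 3 that arose by duplication, so that Irx1 and Irx3, Irx2 and Irx5, and Irx4 and Irx6 are counterparts. The genes are short and stand far apart, and the intervals between them are known to hold enhancers shared by cluster members. In mm10 (RefSeq GRCm38.p6) the chromosome 8 cluster holds Irx3 (gene ID 16373, chr8:91798511-91801654), Irx5 (gene ID 54352, chr8:92357796-92361456) and Irx6 (gene ID 64379, chr8:92674289-92680956), bordered by Fto and Mmp2. The chromosome 13 cluster holds Irx1 (gene ID 16371, chr13:71958232-71963723), Irx2 (gene ID 16372, chr13:72624430-72634196) and Irx4 (gene ID 50916, chr13:73259589-73269622), bordered by Adamts16 and Ndufs6.

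The RefSeq promoter table of GRCm38.p6 gives a start for Irx2, Irx3 and Irx4, and a peak of each list overlapped the 250 bases before each of these starts. These bases are shown because they are the promoter DNA that peaks of both lists reach. At Irx4 the FM peak ends 72 bp before the start, while the KO peak runs past it. Capitals mark GC boxes (GGGCGG, searched on both strands), which 42.6% of 21263 windows of this length before protein-coding genes hold. The windows are chr13:72628570-72628819 (plus strand) for Irx2, chr8:91801655-91801904 (minus strand) for Irx3 and chr13:73260247-73260496 (plus strand) for Irx4, each written 5′ to 3′.
Irx2: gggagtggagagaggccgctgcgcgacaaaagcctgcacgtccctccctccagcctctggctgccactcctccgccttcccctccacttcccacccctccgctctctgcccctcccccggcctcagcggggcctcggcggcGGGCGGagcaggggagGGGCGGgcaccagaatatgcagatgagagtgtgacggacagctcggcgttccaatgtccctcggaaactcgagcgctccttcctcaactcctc
Irx3: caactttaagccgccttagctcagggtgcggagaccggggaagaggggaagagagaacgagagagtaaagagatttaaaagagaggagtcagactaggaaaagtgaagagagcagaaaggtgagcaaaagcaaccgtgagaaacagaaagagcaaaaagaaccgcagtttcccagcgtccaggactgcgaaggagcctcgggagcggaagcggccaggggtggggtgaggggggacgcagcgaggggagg
Irx4: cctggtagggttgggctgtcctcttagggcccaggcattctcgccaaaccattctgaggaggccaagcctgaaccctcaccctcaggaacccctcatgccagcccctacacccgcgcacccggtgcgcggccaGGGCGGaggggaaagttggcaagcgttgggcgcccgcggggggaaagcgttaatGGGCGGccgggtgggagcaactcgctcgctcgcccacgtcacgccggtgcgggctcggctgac
Irx2 and Irx4 had 2 GC boxes each, and the Irx3 window had 0. The GC content was 68.4% for Irx2, 56.0% for Irx3 and 68.8% for Irx4, against a median of 55.6% over all windows, which Irx3 hardly exceeded. They held 19, 13 and 22 CpG sites in the same order, against a median of 10, and 26.1%, 42.4% and 19.5% of all windows held as many. The palindromic P2 and P3 sites of paired-class homeodomain dimers, which are TAAT followed by ATTA after 2 or 3 bases, were in none of the 3 windows, and occur in 0.315% and 0.357% of all windows. The Iroquois site ACANNTGT, held by 5.26% of windows, was in none of the 3 on either strand.

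All 6 Irx genes had a peak within 1 kb of a gene end or known start in both lists, as did 72.7% of protein-coding genes (76.5% for FM and 74.1% for KO). The values given for a peak are the authors' fold enrichment of its summit over the local background and −log10 of its q-value, a p-value adjusted for the number of positions tested. In a pooled list, a larger share of cells with an open region and wider opening in each cell cannot be told apart.

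Irx3 and Irx1 are counterparts that act early in neural and limb patterning. At the start of Irx3, a wide peak with 4 summits in both lists had a fold of 3.25 (−log10 q 59.1) in the FM list at chr8:91800682-91802573, and a fold of 3.04 (−log10 q 50.7) in the KO list at chr8:91800916-91802687. The end of higher coordinate of Irx1 lay under a peak with a fold of 2.04 (−log10 q 9.07) in the FM list at chr13:71962767-71964274, and a fold of 2.95 (−log10 q 25.9) in the KO list at chr13:71962849-71964708. At Irx3 the FM value was thus the higher and at Irx1 the KO value. Inside Irx1 a second peak had a fold of 2.23 in the FM list (chr13:71959042-71959885) and 2.56 in the KO list (chr13:71959109-71959768), and the KO list alone had a weak peak at chr13:71958663-71958909 with a fold of 1.80.

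Irx2 and Irx5 form the next pair of counterparts, and Irx5 is known for setting the repolarisation gradient of the heart wall. The start of Irx2 had a fold of 3.25 (−log10 q 46.7) in the FM list at chr13:72628034-72629698, and a fold of 4.63 (−log10 q 101) in the KO list at chr13:72628031-72629598. The widest of the named peaks covered the end of lower coordinate of Irx5. There the fold was 4.30 with −log10 q of 114 in the FM list (chr8:92355709-92358448, 6 summits), and 4.62 with −log10 q of 151 in the KO list (chr8:92355667-92358448, 5 summits). Both genes therefore had strong peaks in both lists, with the higher values in the KO list. High folds were more common in the KO list as a whole. There 19697 of 139164 peaks had a fold of at least 3, against 16699 of 205844 FM peaks. Ranked by fold from low to high within its own list, the Irx5 peak stood at 97.0% in FM and 94.2% in KO. The Irx2 peak stood at 93.6% in FM and 94.3% in KO. Farther inside Irx5 the FM list alone had a weak peak at chr8:92360295-92360702, with a fold of 1.43.

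Irx4, a gene of ventricular muscle cells of the heart, had the weakest start of the 3 genes whose start is known. Its fold was 2.07 in the FM list (chr13:73260135-73260425) and 1.93 in the KO list (chr13:73260221-73260551). A stronger peak lay within the gene, with a fold of 2.56 in the FM list (chr13:73265413-73265911) and 2.99 in the KO list (chr13:73265360-73265828). Irx6, a gene of retinal bipolar interneurons, had a peak over its end of lower coordinate with a fold of 3.50 in the FM list (chr8:92673522-92675320) and 3.66 in the KO list (chr8:92672954-92675307). The −log10 q of this Irx6 peak was 41.4 in FM and 41.7 in KO. Toward its other end, a weaker peak inside Irx6 had a fold of 1.90 in the FM list (chr8:92679923-92680227) and 1.79 in the KO list (chr8:92679871-92680192). These folds carry no replicate error, and each is relative to the background of its own list, so a gap between lists describes the 2 lists only.

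**Figure D1:**
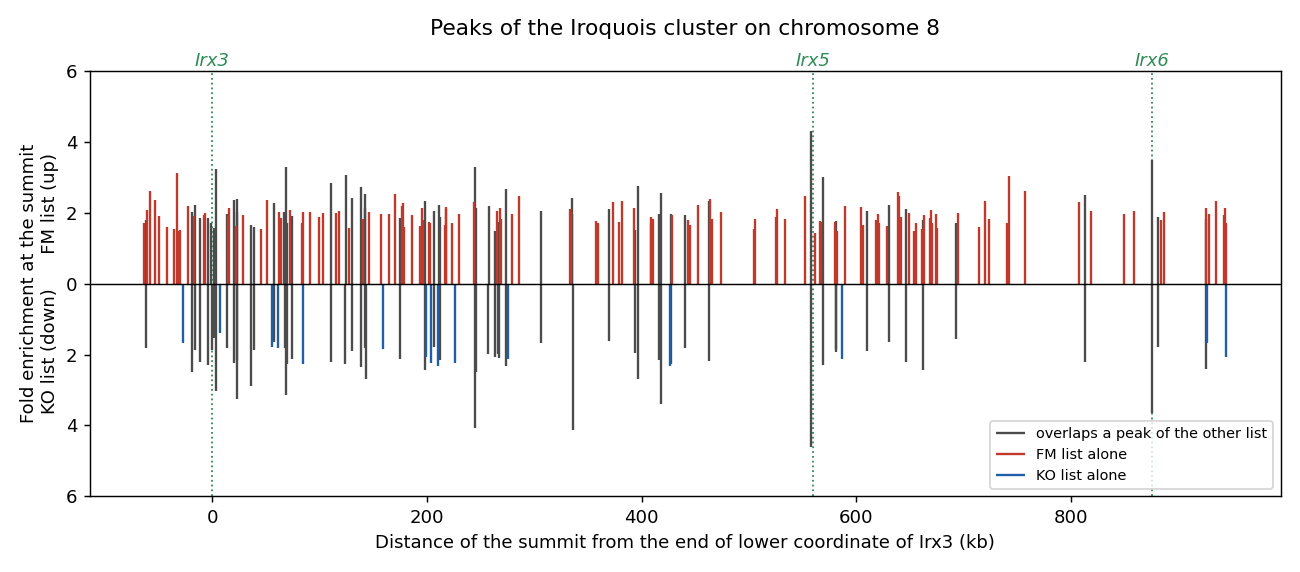
Fold enrichment at the summit of each peak assigned to Irx3, Irx5 or Irx6, plotted against distance from Irx3 in kb, with 185 FM peaks drawn upward and 74 KO peaks downward. Grey lines are peaks that overlap a peak of the other list, red and blue lines peaks of the FM or KO list alone, and dotted lines mark the genes; the tallest lines in both directions stand at Irx5, with folds of 4.30 and 4.62.

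The strongest distal peaks of the clusters were in both lists. The highest fold of all Irx peaks lay 99.1 kb from Irx4, at 4.63 in the FM list (chr13:73159433-73160778) and 5.25 in the KO list (chr13:73159455-73160775). Near Irx3, a peak 242 kb from the gene had a fold of 3.30 in the FM list (chr8:92042887-92043529) and 4.08 in the KO list (chr8:92042979-92043502). The highest folds of Irx1 lay far from the gene. The peak 246 kb away had a fold of 3.52 in FM and 3.79 in KO, and the one 450 kb away had 3.35 in FM and 3.48 in KO. Each of these 4 distal peaks had the higher fold in the KO list, but the higher rank by fold within the FM list. In the order given, the ranks were 97.6, 93.9, 94.9 and 94.1% in FM. In KO they were 95.8, 92.5, 91.4 and 89.7%. Other shared peaks of like strength had the higher value in the FM list. A peak 325 kb from Irx2 (chr13:72299730-72300034) had a fold of 3.42 in FM and 2.81 in KO. One 65.7 kb from Irx3 (chr8:91866973-91867541) had 3.29 and 3.16. One 226 kb from Irx4 (chr13:73032967-73034761) had 3.09 in FM and up to 2.71 in KO. At chr13:72815177-72815987, 181 kb from Irx2, the fold was 3.75 in FM and 2.37 in KO. A peak 5.72 kb from Irx5 (chr8:92366867-92367529) had a fold of 3.02 in FM and 2.29 in KO. The reverse held 223 kb from Irx5 (chr8:92133014-92134817). There the FM list had 2 peaks of fold up to 2.41 under a single KO peak of fold 4.13 with 5 summits. It also held 141 kb from Irx5 (chr8:92216243-92216813), with 2.57 in FM and 3.38 in KO. At 20.2 kb from Irx3 (chr8:91821675-91822230) the fold was 2.03 in FM and 3.25 in KO.

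**Figure D2:**
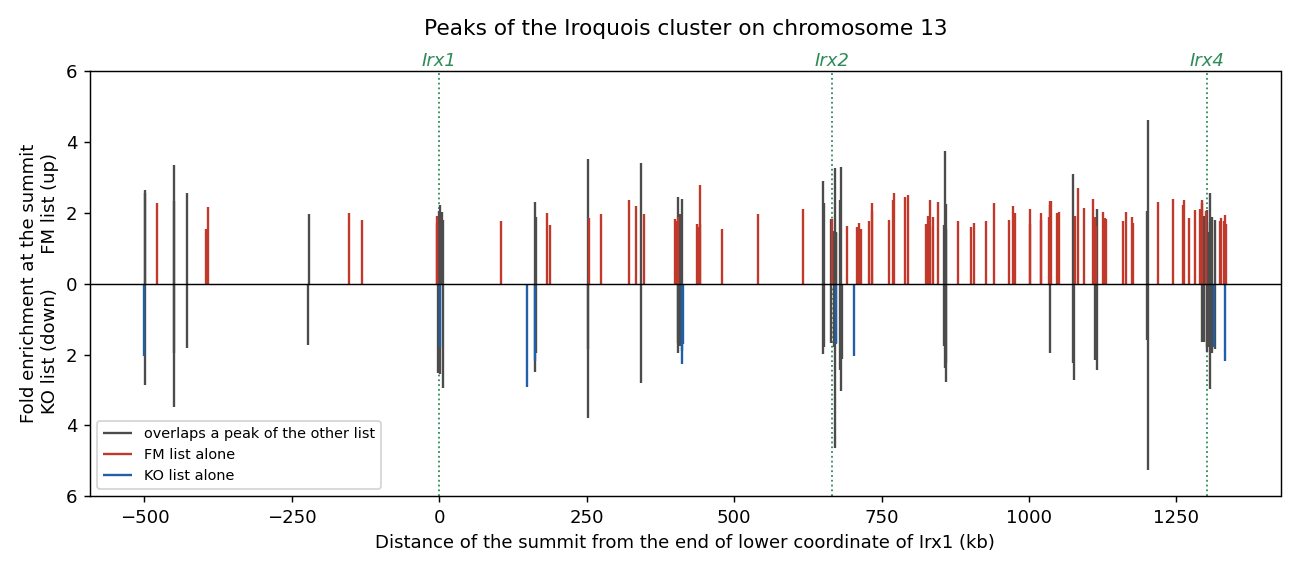
Fold enrichment at the summit of each peak assigned to Irx1, Irx2 or Irx4, plotted against distance from Irx1 in kb, with 132 FM peaks upward and 55 KO peaks downward, coloured as in the map of the chromosome 8 cluster. Red lines, peaks of the FM list alone, are dense between Irx2 and Irx4 and sparse on both sides of Irx1.

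FM peaks outnumbered KO peaks at every Irx gene, as they did over the whole lists, by 1.48 times. The ratio was 2.46 for the 6 genes together, from 1.69 at Irx1 to 3.5 at Irx6. Of the 337 merged regions, 99 were in both lists (29.4%, against 40.5% of all regions), 213 in the FM list alone (63.2%, against 43.6%) and 25 in the KO list alone (7.42%, against 16%). Among the 238 regions found in 1 list only, the FM-only share was therefore 89.5%, with an exact binomial interval of 84.9 to 93.1%, against 73.2% over the genome. The interval covers the counting of regions only, and neighbouring regions are not independent. With equal numbers of the strongest peaks the share fell: with 50000 from each list it was 54.5%, from 18 of 33 regions, against 49.7% over the genome. With as many FM peaks as the KO list holds it was 71.2%, against 50.5%. Regions counted for 1 list in such settings can lie over a weaker peak that the other list holds in full. With −log10 q of at least 5 required in both lists the share was 77.9%, against 72.1%.

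Irx5 had the highest FM-only share, with 52 FM-only and 2 KO-only regions (96.3%, interval 87.3 to 99.5), beside 18 shared ones. Irx4 had 36 and 2 (94.7%, interval 82.3 to 99.4), Irx2 38 and 4 (90.5%, interval 77.4 to 97.3) and Irx6 17 and 2 (89.5%, interval 66.9 to 98.7). Irx3 had the most regions, with 56 FM-only and 11 KO-only (83.6%, interval 72.5 to 91.5) beside 36 shared ones. Irx1 had the lowest share, with 14 and 4 (77.8%, interval 52.4 to 93.6) beside 11 shared ones. The intervals of neighbours in this order overlap, and those of Irx1, Irx3 and Irx6 contain the genome's 73.2%. Within each pair the chromosome 8 gene and its chromosome 13 counterpart had overlapping intervals. Among 2098 genes with at least 18 regions found in 1 list, the median FM-only share was 77.8%, and 11.6% of these genes reached the 89.5% of the Irx genes together. The share of Irx5 was reached by 1.48% of them, that of Irx4 by 3.24%, of Irx2 by 9.34%, of Irx6 by 12.2%, of Irx3 by 28.6% and of Irx1 by 50.7%. Irx3 also had many regions, as 0.562% of protein-coding genes had as many as its 103. Such a count grows with the length of sequence nearest to a gene, for which it was not adjusted.

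**Figure D3:**
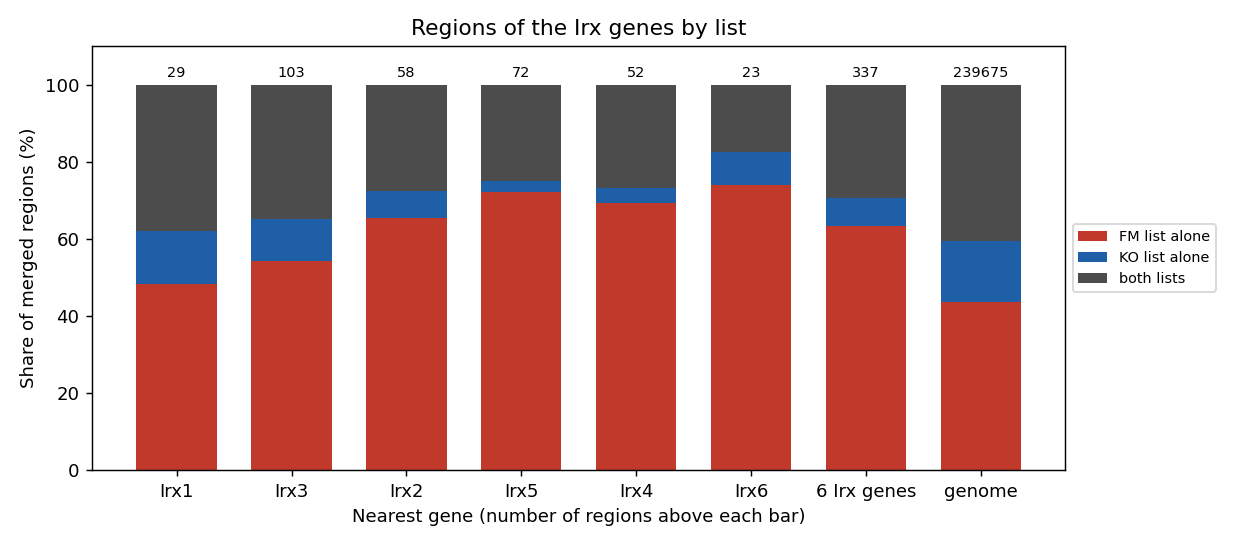
Share of merged regions in the FM list alone, the KO list alone and both lists, in percent, for each Irx gene in pairs of counterparts, for the 6 genes together and for the genome, with the number of regions above each bar. Regions of the FM list alone make up 63.2% of the Irx regions and 43.6% of all regions.

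The clusters resembled each other in these shares. On chromosome 8 there were 125 FM-only, 15 KO-only and 58 shared regions, with an FM-only share of 89.3% (interval 82.9 to 93.9), against 72.4% in the rest of the chromosome. On chromosome 13 there were 88 FM-only, 10 KO-only and 41 shared regions, with 89.8% (interval 82.0 to 94.997), against 76.5% in the rest of that chromosome. Within each cluster the stretches between genes differed in density. Stretches are counted whole, so those between a border gene and an Irx gene include peaks and regions nearer the border gene. Between Irx2 and Irx4, 625 kb long, there were 71 FM and 17 KO peaks, with 57 FM-only and 1 KO-only region (98.3%, interval 90.8 to 99.96). Its counterpart between Irx5 and Irx6, 313 kb long, had 44 FM and 11 KO peaks, with 35 FM-only and 1 KO-only region (97.2%, interval 85.5 to 99.9). Between Irx3 and Irx5, 556 kb long, there were 108 FM and 50 KO peaks, with 67 FM-only and 11 KO-only regions (85.9%, interval 76.2 to 92.7). Its counterpart between Irx1 and Irx2, 661 kb long, had 30 FM and 17 KO peaks, with 19 and 4 (82.6%, interval 61.2 to 95.05). In both clusters the stretch before the outer gene, Irx4 or Irx6, thus had the higher share of the 2 stretches, and the binomial intervals of the 2 overlap. Per 100 kb, the FM list had 30.0 peaks between Fto and Irx3, 19.4 between Irx3 and Irx5, 14.1 between Irx5 and Irx6, 4.54 between Irx1 and Irx2 and 11.4 between Irx2 and Irx4. The KO list had 10.8, 8.99, 3.52, 2.57 and 2.72 in the same order. Medians over 1689 gaps longer than 200 kb between protein-coding genes were 0.860 in FM and 0.880 in KO, with ninetieth percentiles of 15.0 and 8.29. The stretch between Fto and Irx3 is shorter than these gaps, at 130 kb, so they are no background for it. The shortest flank, 50.3 kb between Irx4 and Ndufs6, had 19.9 FM and 13.9 KO peaks per 100 kb, the highest KO density of the stretches. It held 7 FM-only, 4 KO-only and 3 shared regions, an FM-only share of 63.6% (interval 30.8 to 89.1), the lowest of the stretches and below the genome's 73.2%. Not all of these belong to Irx4, which had 2 KO-only regions in all.

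By distance from the gene, regions inside the Irx genes were mostly shared. The interval of the FM-only share lay above the genome's value at 10 to 100 and 100 to 500 kb. These intervals cover counting only and treat neighbouring regions as independent, so they are no test of an excess at any distance. Nearer the genes one-list regions were also too few to show whether such a difference is absent. The Irx genes are 3.14 to 10.0 kb long, so regions inside them lie near a gene end, which regions inside longer genes need not. Of the 14 regions inside the genes, 11 were shared (78.6%, interval 49.2 to 95.3, against 41.8% of regions inside genes over the genome), 1 was FM-only and 2 were KO-only. Over the genome 75.6% of one-list regions inside genes were FM-only. Of the 6 within 1 kb, 5 were shared (83.3%, interval 35.9 to 99.6, against 59.0% over the genome) and 1 was FM-only, where 69.2% of one-list regions were FM-only over the genome. At 1 to 10 kb there were 11 FM-only and 2 KO-only regions beside 9 shared ones, an FM-only share of 84.6% (interval 54.6 to 98.1), against 69.9% at this distance over the genome. At 10 to 100 kb there were 84 and 9 beside 26 shared ones (90.3%, interval 82.4 to 95.5, against 71%). At 100 to 500 kb there were 116 and 11 beside 48 shared ones (91.3%, interval 85.0 to 95.6, against 69.1%). The shared share of the Irx regions was 40.9% at 1 to 10 kb, against 41.3% over the genome, 21.8% at 10 to 100 kb, against 37.1%, and 27.4% (interval 21.0 to 34.7) at 100 to 500 kb, against 30.8%. A single KO-only region lay over 500 kb from Irx1, on the side of Adamts16.

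**Figure D4:**
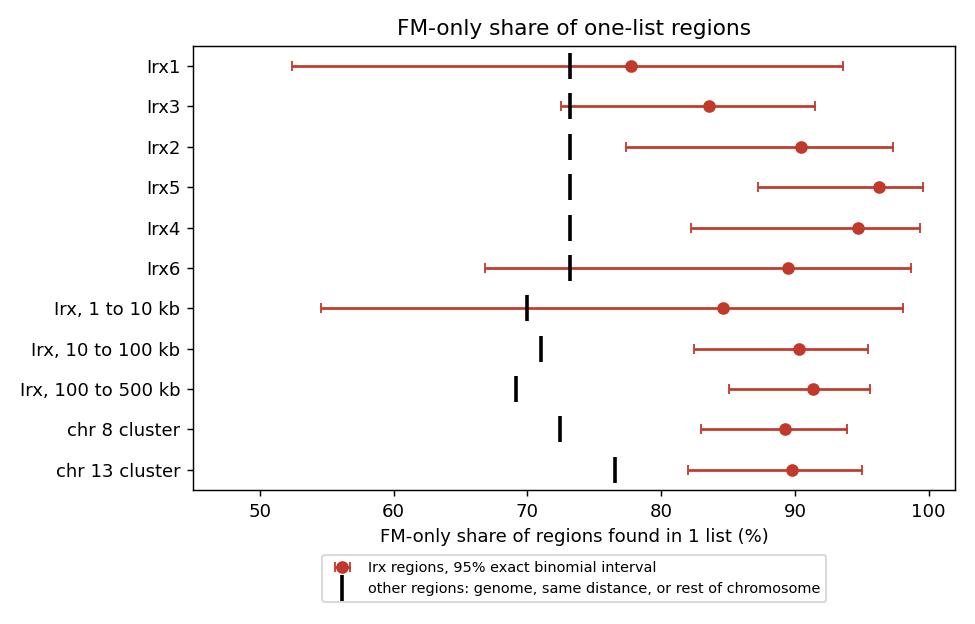
FM-only share, in percent, of the regions found in 1 list, for each Irx gene, for distance classes and for each cluster, as points with exact binomial intervals at 95%. Black ticks give the same share over the genome, over regions at the same distance or over the rest of the chromosome; the points at 10 to 500 kb stand near 90 to 91%, with ticks at 71.0 and 69.1%.

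The FM-only peaks of the Irx genes were about as weak as FM-only peaks in general. Their median fold was 1.93 and their median −log10 q 4.42, against 1.86 and 4.35 for all FM-only peaks, and 10 of 213 (4.69%) had −log10 q of at least 10, against 5.9%. The strongest lay 32.9 kb from Irx3 at chr8:91765218-91766075, with a fold of 3.13 and −log10 q of 20.7. Irx6 came next with a peak 133 kb from the gene (chr8:92540733-92541065, fold 3.05, −log10 q 17.0) and a further one 119 kb away (chr8:92555254-92555808, fold 2.61). At Irx2 the strongest FM-only peak was chr13:72400074-72400499 with a fold of 2.77, at Irx4 chr13:73041128-73041713 with a fold of 2.71 and at Irx5 chr8:92437331-92437646 with a fold of 2.60. At Irx1 it was chr13:72280377-72280723, with a fold of 2.37 and −log10 q of 8.27. Of the 25 KO-only peaks, 1 (4%, against 9.44% of all KO-only peaks) had −log10 q of at least 10. It lay 143 kb from Irx1 at chr13:72106863-72107085, with a fold of 2.91 and −log10 q of 15.3. The strongest KO-only peaks of the other 5 genes had folds of 2.08 to 2.31.

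Strong peaks were a smaller part of the Irx peaks than of the lists. At −log10 q of at least 10 there were 43 of 317 FM peaks (13.6%, against 24.1%) and 32 of 129 KO peaks (24.8%, against 29.4%). The KO gap is small for 129 peaks. Peaks of the lists lie nearer to genes, and strength was not compared at like distance. For shared FM peaks the median distance was 99.0 kb at the Irx genes and 0 kb in the list. Split by significance, the share of FM peaks that overlapped a KO peak was lower for the Irx genes than for the whole list in each class under 50, and in 1 class, that of 5 to 10, the interval left out the value of the list. At −log10 q of 5 to 10, 36 of 109 FM peaks were shared (33.0%, interval 24.3 to 42.7), against 48.0% of the list. At 2 to 5, 31 of 137 were shared (22.6%, interval 15.9 to 30.6), against 29.4%, and at 10 to 50, 30 of 40 (75.0%, interval 58.8 to 87.3), against 85.2%. For KO peaks the share was higher for the Irx genes than for the list in each class, and in 1 class, that of 2 to 5, the interval left out the value of the list. There 33 of 42 overlapped an FM peak (78.6%, interval 63.2 to 89.7), against 61.1% of the list. At 5 to 10 they did so in 32 of 44 cases (72.7%, interval 57.2 to 85.0), against 71.9%. Under 2 it was 8 of 11 (72.7%, against 54.1%), and at 10 to 50 it was 26 of 27 (96.3%, against 87.9%). In the 89 Irx regions made of 1 FM and 1 KO peak, the summits lay a median of 53 bp apart, against 50 bp over 89401 such regions.

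**Figure D5:**
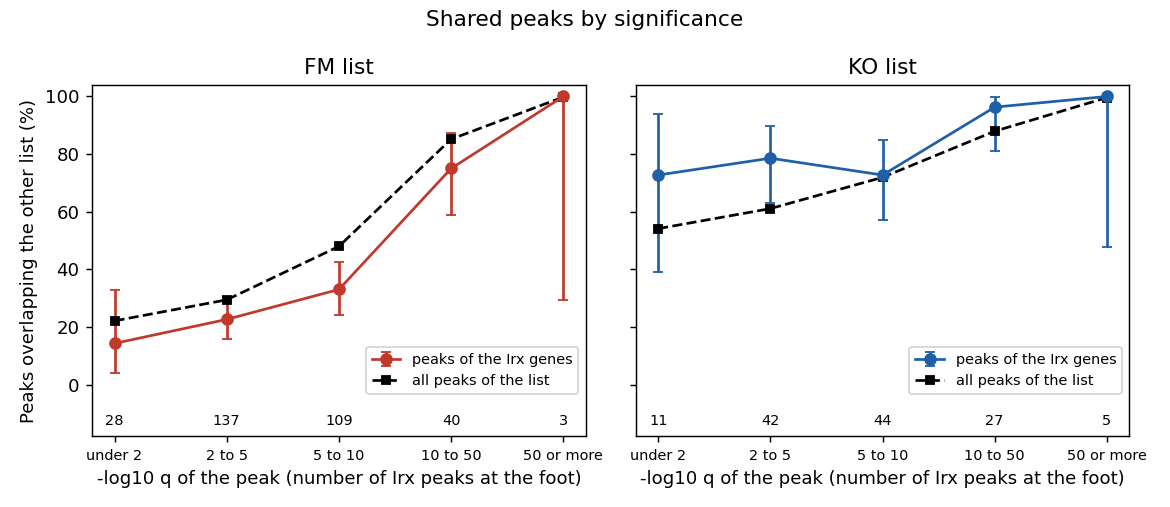
Share of peaks, in percent, that overlap a peak of the other list, by −log10 q of the peak, for the FM list and the KO list. Coloured points are the Irx peaks with exact binomial intervals at 95% and their number at the foot, and black squares all peaks of the list; between 5 and 10, the Irx point is at 33.0% and the square at 48.0% in the FM list.

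Related genes were compared as lists. The other 12 TALE homeobox genes, which include the Meis, Pbx and Tgif cofactors, had 194 FM-only and 59 KO-only regions beside 145 shared ones. Their FM-only share was 76.7% (interval 71.0 to 81.7), against 73.2% over the genome. More FM-only than KO-only regions were found at 10 of these 12 genes and the reverse at 1, Mkx, with 1 and 6. Such a lean is common among genes with at least 18 one-list regions, as the tenth percentile over 2098 of them was an FM-only share of 55.3%. Several of the TALE genes had fewer one-list regions, and for those this is no background. Meis1, a hindbrain and blood factor, had 18 and 1, and Meis2 had 15 and 10. Among 12 genes that act with Iroquois genes in patterning, the pooled counts were 156 and 35. Their FM-only share was 81.7% (interval 75.4 to 86.9), against 73.2% over the genome. Olig2, a motor neuron gene, had 12 and 1, and the cardiac T-box gene Tbx5 had 31 and 4. Gbx2 had 1 and 1, and Fezf2 had 2 and 2. Over the 2 lists, the genes closest to the pooled Irx genes in their shares of shared, FM-only and KO-only regions were Gdf10, Kcne2, Zswim6, Wdfy4 and Srgap3, whose 3 shares differed from those of the Irx genes by 0.506 to 1.18 percentage points in sum. They came from 2900 genes with at least 23 regions.

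As a check of the labelled cells, a peak lay within 1 kb of a gene end or known start at 5 of 6 epiblast stem cell markers for FM and 6 of 6 for KO, Nanog being the one without an FM peak. The counts were 7 of 7 in both lists for primitive streak markers, 4 of 4 (FM) and 3 of 4 (KO) for neural plate markers, 5 of 7 in each list for the feeder fibroblast markers and 3 of 5 in each list for extraembryonic markers. Of the extraembryonic markers 2 had such a peak in both lists, Tfap2c had one in FM alone and Ttr in KO alone. Over all protein-coding genes 76.5% had such a peak in FM and 74.1% in KO, so counts this small cannot separate cell types. Accessibility at a gene end also does not measure expression, so these counts do not settle which cells were present. The part of any such cells in the Irx peaks was not tested.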

How the data were processed

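ATAC-seq libraries of 3 Mixl1-induced and 3 Mixl1 knockout samples, from 50000 cells each and with 11 PCR cycles, were represented by 2 deposited peak lists without a header. The submitters' processing notes name MACS2, Bowtie2, SAMtools and bcl2fastq, and mm10 as build, without versions. Whether reads were shifted for Tn5 or filtered for duplicates, and how libraries were pooled, was not given in the sources used here. Deposited per peak by the authors are a fold enrichment (a ratio), p-value and q-value on the −log10 scale, and an integer score, which was not used. The lowest −log10 q was 1.30 in both lists, a threshold of 0.05. Depth is unknown.

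From 279817 FM and 191107 KO rows, rows of the same interval were collapsed to the one of lowest p, and assembled chromosomes were kept. Peaks overlapping by at least 1 bp were merged into regions. A peak's summit, or a region's midpoint, was assigned to the nearest of 21887 protein-coding genes of RefSeq GRCm38.p6 (distance 0 inside), with no distance limit for the Irx genes. Intervals are exact binomial (Clopper-Pearson) at 95%. Named were all 6 genes and, per gene and list, peaks at the start or ends, and per gene the strongest FM-only peak. Of the 3 peaks of highest fold per gene and list, and of the KO-only peaks, only some are named. Of the 6 genes, 3 matched the promoter table. The labels do not say whether the libraries came from separate cultures. The members and lists were chosen with earlier results of these data known. A further gene list is not reported here. The alternatives were stricter q, other overlaps, equal list sizes, distance limits and distance from gene starts. On simulated data, all 20000 places were classed as made. Python 3.11.15, pandas 2.3.3, numpy 2.4.6, scipy 1.17.1 and matplotlib 3.10.9 were used.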

Additional observations from a re-analysis of the deposited data

How the results depend on the processing

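No paired analysis was possible because each group has 1 peak list and no result comes from a test; for the same reason no library could be left out. The FM-only share of regions found in 1 list stayed above that of the genome in all 27 combinations of 9 alternatives with the Irx genes together and each cluster, but in 13 of the 27 the exact binomial interval contained the genome's value. For the Irx genes together these were −log10 q of at least 5 (interval 70.0 to 84.6), 50000 peaks (36.4 to 71.9), one-list regions of −log10 q of at least 10 (58.7 to 99.8) and within 20 kb (68.3 to 96.1). Requiring −log10 q of at least 5 gave 77.9% for the Irx genes and 73.8% for the chromosome 8 cluster, against 72.1% over the genome. With 50000 peaks from each list it was 54.5%, 52.4% on chromosome 8 and 58.3% on chromosome 13, against 49.7%. With as many of the strongest FM peaks as KO peaks, chosen after seeing the data, it was 71.2%, 69.7% and 73.4%, against 50.5%. Counting peaks within 500 bp as shared gave 93.5% for the Irx genes, against 75.2%. Limiting one-list regions to −log10 q of at least 10 gave 100% on chromosome 8 (7 of 7) and 75.0% on chromosome 13 (3 of 4), against 63.1%. Within 20 kb of the genes chromosome 13 had 76.9%, against 74.2%. The shared share of Irx regions was 24.4% when peaks of −log10 q under 5 were dropped before merging (39.2% over the genome). It was 42.1% with 50000 peaks (47.1%), and within 20 kb it was 54.0%, above the 42.1% of the genome. Among regions of the full lists whose highest −log10 q in either list was at least 10, it was 78.8% (83.9%). There a strong peak over a weaker one still counts as shared, so this value and that for 5 are not steps of 1 filter. At single genes the direction against the genome turned at Irx3 with −log10 q of at least 5 (65.1%) and with 50000 peaks (42.9%, 6 of 14), and at Irx1 with 50000 peaks (20.0%, 1 of 5). At Irx2 the 5 one-list regions of that setting were all FM-only. The cause of these shifts was not tested. Unknown depth and 1 list a group limit all statements to the lists themselves.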

Other observations

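Fto, the neighbour of Irx3, is known to hold elements that act on Irx3 and Irx5. Its gene body (355 kb) held 56 FM and 26 KO peaks, or 15.8 and 7.32 per 100 kb, in 42 FM-only, 11 KO-only and 14 shared regions. The FM-only share there was 79.2% (exact binomial interval 65.9 to 89.2), against 90% (interval 73.5 to 97.9) in the 130 kb between Fto and Irx3, where 27 regions were FM-only and 3 KO-only. Such stretches beside a border gene include regions nearer that gene than an Irx gene. Between Irx4 and Ndufs6 7 were FM-only and 4 KO-only (63.6%). Between Irx6 and Mmp2, 14 were FM-only and 4 KO-only (77.8%), and between Adamts16 and Irx1, a gap of 1116 kb, 13 and 4 (76.5%). The nearest and next-nearest neighbours of the clusters were 8 genes, Rpgrip1l, Fto, Mmp2, Lpcat2, Ice1, Adamts16, Ndufs6 and Mrpl36. As nearest genes they had 110 FM-only and 28 KO-only regions (79.7%, interval 72.0 to 86.1, against 73.2% over the genome). Fto alone had 55 and 13 of these.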
